A study of Homo sapiens with 6 samples.

Results

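Polycomb repressive complex genes were examined in human foreskin fibroblasts (HFF) with and without an oncogene switched on. Senescence itself was not measured in the data used here. The group consists of 10 genes listed by symbol and chosen with earlier results of these data known. They are EZH1, EZH2, SUZ12, EED, JARID2, BMI1, RING1, CBX2, CBX7 and CBX8. Each was found as 1 row of a deposited expression table with 59050 entries. All cells of both groups, at about passage 18, carried the lentiviral construct pLNC ER:RAS (G12V), in which H-RAS with the G12V change is fused to a hormone-binding part of the oestrogen receptor, and had been selected with 200 µg/ml neomycin. In the 4-OHT group the fusion was switched on with 100 nM 4-hydroxytamoxifen and the cells were collected 1 week later; the DMSO group received the vehicle, and the labels give no separate time for it. Each group had 3 bulk RNA-seq libraries, and nothing states whether they came from separate cultures, so a p-value here reflects the spread among libraries, which may be technical. The labels give no group without the construct and no group with 4-hydroxytamoxifen but without the fusion.

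Polycomb repressive complexes keep developmental genes and the cell cycle inhibitors of the INK4 locus silent. PRC2 places methyl groups on histone H3 through EZH2 or EZH1, which work only when bound to SUZ12 and EED, while JARID2 helps to bring the complex to chromatin. Canonical PRC1 binds this mark through a CBX protein and attaches ubiquitin to histone H2A through RING1 or RNF2 with a PCGF partner such as BMI1. EZH2 is known as the form of dividing cells and as a target of E2F factors, EZH1 as the form of resting cells, and BMI1, CBX7 and CBX8 as repressors of the INK4 locus whose loss makes fibroblasts senescent.

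The starts of EZH2, SUZ12 and EZH1 are shown because they are the members whose promoter window held a match to an E2F-type motif. The letters searched were TTTCGCGC, TTTGGCGC, TTTCCCGC and TTTGCCGC, on both strands, in windows of 300 bases from 250 before to 50 after each transcript start (RefSeq, GRCh38.p14). None of these motifs contains another. The first 280 bases of each window are printed on the gene's strand, 5′ to 3′, with the match in capitals.
EZH2, chr7:148884262-148884541, minus strand: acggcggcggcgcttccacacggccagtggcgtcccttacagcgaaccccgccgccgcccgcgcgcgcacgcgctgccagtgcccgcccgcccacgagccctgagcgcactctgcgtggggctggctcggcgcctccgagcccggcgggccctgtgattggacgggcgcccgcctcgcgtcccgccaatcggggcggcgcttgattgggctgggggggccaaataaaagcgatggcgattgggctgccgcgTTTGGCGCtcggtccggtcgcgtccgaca
SUZ12, chr17:31936757-31937036, plus strand: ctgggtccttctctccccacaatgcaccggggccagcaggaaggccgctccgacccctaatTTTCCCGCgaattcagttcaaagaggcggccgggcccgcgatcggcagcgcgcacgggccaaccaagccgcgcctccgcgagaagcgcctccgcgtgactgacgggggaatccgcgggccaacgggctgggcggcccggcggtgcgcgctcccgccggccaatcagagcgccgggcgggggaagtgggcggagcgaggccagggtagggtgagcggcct
EZH1, chr17:42745011-42745290, minus strand: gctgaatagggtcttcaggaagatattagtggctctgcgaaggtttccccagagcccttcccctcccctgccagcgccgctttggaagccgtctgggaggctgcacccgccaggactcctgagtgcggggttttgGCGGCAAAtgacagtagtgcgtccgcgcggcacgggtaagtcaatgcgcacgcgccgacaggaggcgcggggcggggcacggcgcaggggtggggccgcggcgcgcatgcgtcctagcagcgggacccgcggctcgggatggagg
The match of EZH2 (TTTGGCGC) began 1 base after the transcript start, that of SUZ12 (TTTCCCGC) lay 189 bases before it, and that of EZH1 (TTTGCCGC, on the opposite strand) 115 bases before it. RefSeq windows were matched for 8 of the 10 members, 11 windows in all, of which these 3 held a match. A second EZH2 window held none. Of all 35116 windows, 3.31% held a match. A match is a run of letters and does not show that a factor binds there.

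All values are TPM, a relative transcript level corrected for transcript length, so different genes can be set side by side. A log2 fold change is the 4-OHT mean less the DMSO mean of log2(TPM + 1), a scale on which changes at low levels look smaller than they are. A gene was called when its Benjamini-Hochberg adjusted p was under 0.05 in limma, over the 15272 genes whose mean over the libraries reached 1 TPM. All 10 members passed that filter, CBX2 through its DMSO level alone. Over all genes 3018 were called higher and 4561 lower in 4-OHT; with median-of-ratios scaling between libraries the split was 4039 higher and 3579 lower, because this scaling moved the log2 fold changes upward by a median of 0.11 (0.13 under quantile normalization). The cells carried fibroblast markers, whose summed level over 8 genes was 18984 to 19395 TPM in 4-OHT and 19994 to 20604 TPM in DMSO. Most of that sum was VIM, and of the 8 genes 3 rose (VIM, THY1 and PDGFRB) and 5 fell (COL1A1, COL1A2, COL3A1, LUM and DCN), with log2 fold changes from -1.04 to 0.71; their part in the results was not tested. Of the 6 keratinocyte markers KRT10 stood at 32.0 to 42.5 TPM in 4-OHT and 35.9 to 51.0 TPM in DMSO, KRT1 was listed at 0 in every library, and the highest value of the 5 other than KRT10 was 0.0932 TPM in 4-OHT and 0.0664 TPM in DMSO. The highest endothelial marker value was 1.14 TPM in 4-OHT and 2.12 TPM in DMSO. Among the immune markers CD68 stood at 54.0 to 62.8 TPM in 4-OHT and 57.8 to 87.1 TPM in DMSO, and the other 4 reached at most 2.36 TPM in 4-OHT and 1.43 TPM in DMSO. Among the melanocyte markers MITF stood at 5.50 to 6.17 TPM in 4-OHT and 5.86 to 7.99 TPM in DMSO, TYR and DCT were listed at 0 throughout, and the others reached at most 0.577 TPM in 4-OHT and 2.34 TPM in DMSO.

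Of the 10 members, 6 fell in 4-OHT (EZH2, EZH1, SUZ12, CBX2, CBX7 and CBX8), 1 rose (JARID2) and 3 were not called (EED, BMI1 and RING1). By the mean TPM, EZH2 was 4.74-fold and CBX2 5.10-fold lower in 4-OHT, while SUZ12 was 1.17-fold lower. Over all genes tested 29.9% were called lower and 19.8% higher, 49.6% in either direction. The median log2 fold change was -0.37 over the members, against -0.09 over all genes tested. In all 10 members the 4-OHT libraries lay entirely on 1 side of the DMSO libraries, which was so for 59% of all genes tested. Because RNA was taken from whole cultures, fewer cells that express a gene and less RNA per cell cannot be told apart.

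**Figure D1:**
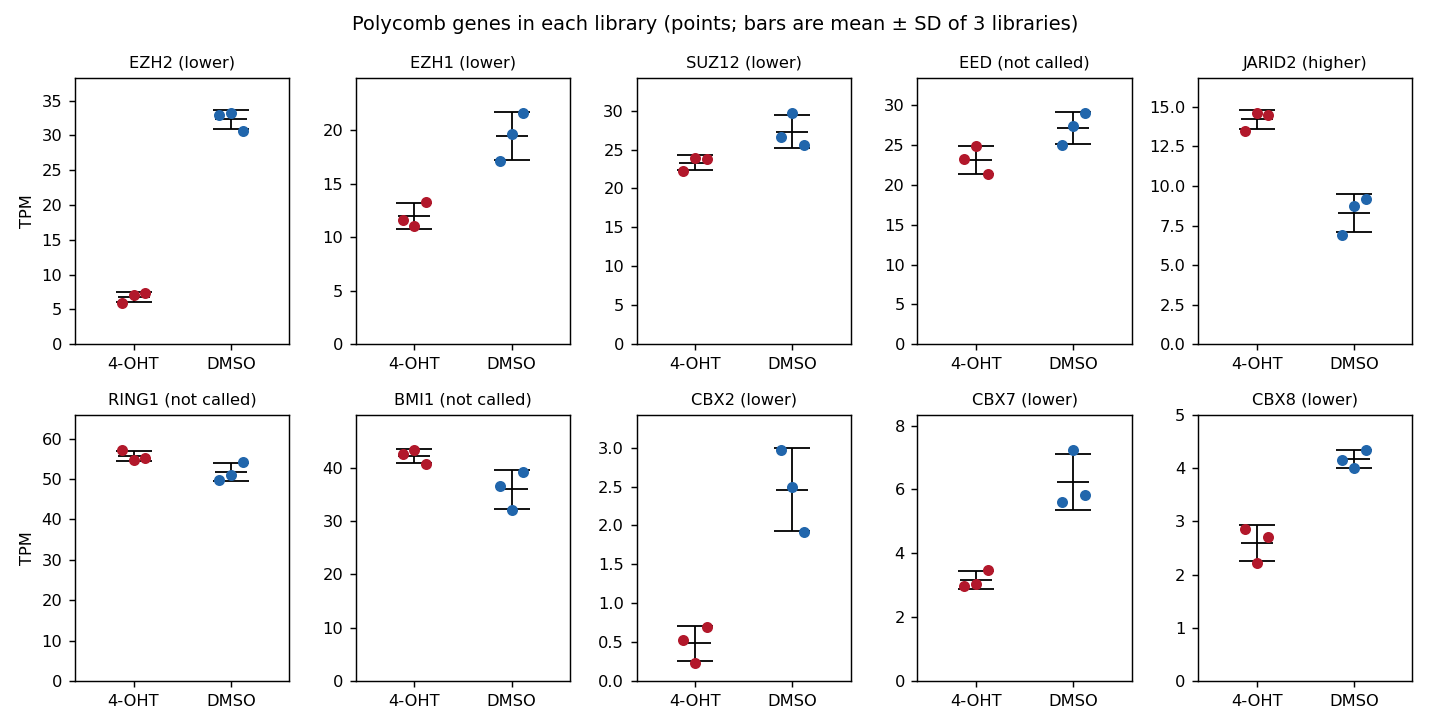
Level of each Polycomb gene in TPM (vertical axes, each from 0) in the 3 4-OHT and 3 DMSO libraries, as points with mean ± SD; the word beside each symbol is its call. EZH2 stood at 5.99 to 7.31 TPM in 4-OHT and 30.7 to 33.2 TPM in DMSO, and JARID2 is the member that was called higher.

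EZH2 (chromosome 7, 148807383 to 148884321, GRCh38, GENCODE 29), the methyltransferase of PRC2, was at 5.99, 7.14 and 7.31 TPM in 4-OHT and at 33.0, 33.2 and 30.7 TPM in DMSO. Every 4-OHT library was far below every DMSO library. The means were 6.81 ± 0.720 TPM in 4-OHT and 32.3 ± 1.40 TPM in DMSO (SD, n = 3 each), 4.74-fold lower in 4-OHT, with a log2 fold change of -2.10 (SE 0.0922, limma adjusted p = 3.33e-06). Only 215 of the 15272 genes tested (1.41%) had a lower log2 fold change. The levels of its pseudogene copy EZH2P1 were at most 0.229 TPM in 4-OHT and 0.192 TPM in DMSO.

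Proliferation markers moved with EZH2. All 14 genes of that list fell, beside 29.9% called lower over all genes tested. Their median log2 fold change was -2.39, with a range from -2.81 to -1.51. Their summed level was 336 to 348 TPM in 4-OHT and 1578 to 1622 TPM in DMSO. Among them BIRC5, which acts in cell division, was at 15.7 ± 0.286 TPM in 4-OHT and 116 ± 2.996 TPM in DMSO, TOP2A, a topoisomerase of dividing cells, at 17.6 ± 0.765 TPM in 4-OHT and 120.4 ± 8.11 TPM in DMSO, and the cyclin CCNA2 at 9.26 ± 1.48 TPM in 4-OHT and 64.1 ± 3.54 TPM in DMSO. The part of a changed share of dividing cells in the fall of EZH2 was not tested.

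The 5 genes most like EZH2 over the 6 libraries, among 10705 whose mean reached 5 TPM and whose symbol was not a clone name, were FOXM1, DTL, COL8A1, CCNB1 and SPAG5. Likeness was the root mean square difference between log2(TPM + 1) values, each gene less its own DMSO mean, and it was 0.0520 for FOXM1 and 0.0719 for SPAG5. Such a measure favours genes whose fold change is close to that of EZH2, so their similar falls follow from the choice. FOXM1, a transcription factor of mitotic genes, was at 18.2 ± 1.51 TPM in 4-OHT and 82.9 ± 3.41 TPM in DMSO (log2 fold change -2.13). DTL, which acts in replication control, was at 3.85 ± 0.462 TPM in 4-OHT and 19.6 ± 0.752 TPM in DMSO, and COL8A1, a collagen chain, at 5.12 ± 0.546 TPM in 4-OHT and 26.3 ± 2.04 TPM in DMSO. The mitotic cyclin CCNB1 stood at 39.0 ± 3.63 TPM in 4-OHT and 176 ± 5.96 TPM in DMSO. SPAG5, of the mitotic spindle, stood at 9.54 ± 0.603 TPM in 4-OHT and 42.7 ± 2.85 TPM in DMSO.

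EZH1 (chromosome 17, 42700275 to 42745049), the second PRC2 methyltransferase, was at 11.6, 11.1 and 13.3 TPM in 4-OHT and at 17.1, 19.7 and 21.6 TPM in DMSO. Its groups did not overlap, but the distance between them was smaller than for EZH2. The log2 fold change was -0.65 (SE 0.111, limma adjusted p = 0.00239), 1.62-fold lower in 4-OHT.

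The summed level of EZH1 and EZH2 was 18.8 ± 1.62 TPM in 4-OHT and 51.7 ± 1.46 TPM in DMSO. EZH2 made up 34.1%, 39.2% and 35.4% of that sum in the 4-OHT libraries and 65.9%, 62.8% and 58.7% in the DMSO libraries, so EZH1 was the more abundant transcript in 4-OHT and EZH2 in DMSO. The mean shares were 36.3% ± 2.66 in 4-OHT and 62.5% ± 3.59 in DMSO, a difference of -26.2 percentage points (exact permutation test, 2-sided, p = 0.1, the smallest that 3 against 3 libraries allow).

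SUZ12 and EED hold the complex together. SUZ12 (chromosome 17, 31937018 to 32001045) was at 22.2, 23.9 and 23.8 TPM in 4-OHT and at 26.6, 29.7 and 25.6 TPM in DMSO, a log2 fold change of -0.22 (SE 0.0761, limma adjusted p = 0.0490). EED (chromosome 11, 86244544 to 86278813), which binds the mark that PRC2 makes, was at 23.2, 24.9 and 21.4 TPM in 4-OHT and at 25.1, 27.4 and 29.02 TPM in DMSO. Its log2 fold change was -0.22 (95% interval -0.42 to -0.02, limma adjusted p = 0.0664). The groups of both genes lay close to each other without overlapping. The call of SUZ12 was lost under 10 of 15 other settings, among them median-of-ratios scaling (-0.10, adjusted p = 0.290), quantile normalization (adjusted p = 0.122) and the omission of any library but DMSO replicate 3 (adjusted p = 0.0798 to 0.143). EED was called under 1 alternative, the omission of DMSO replicate 1 (0.0478, with adjusted p up to 0.338 under the others). SUZ12 also has a transcribed pseudogene copy on the same chromosome, SUZ12P1, at 5.69, 7.08 and 7.48 TPM in 4-OHT and 9.72, 8.78 and 11.5 TPM in DMSO. How reads were divided between the copies is not stated. The sum of both rows had a log2 fold change of -0.30 (adjusted p = 0.00745, a setting added after the data were seen).

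JARID2 (chromosome 6, 15246296 to 15522040), which directs PRC2 to chromatin, was at 13.5, 14.6 and 14.5 TPM in 4-OHT and at 6.93, 8.73 and 9.19 TPM in DMSO. It was the member called higher, with every 4-OHT library above every DMSO library. The log2 fold change was 0.72 (SE 0.114, limma adjusted p = 0.00174), 1.72-fold higher in 4-OHT. The measure used for EZH2, which favours genes with a close fold change, was applied to JARID2. The genes most like it were ANGEL1, MOB1B, KDM5B, DGKD and YTHDF3, with differences of 0.0462 to 0.0606. Of these KDM5B, a histone demethylase, was at 41.5 ± 1.12 TPM in 4-OHT and 25.2 ± 3.99 TPM in DMSO, and MOB1B, of the Hippo pathway, at 27.6 ± 1.21 TPM in 4-OHT and 16.1 ± 2.80 TPM in DMSO.

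In the list of 10 other PRC2 subunits, 9 were tested, of which 5 fell and none rose (median -0.26). EZHIP, listed at 0 in every library, was not tested. Of the 9 tested 55.6% were called, against 49.6% of all genes tested. Beside the 4 described here the fifth was PHF1, a relative of PHF19, named after its values were seen. PHF19, which binds chromatin for PRC2, fell most, at 22.6 ± 2.27 TPM in 4-OHT and 63.4 ± 3.09 TPM in DMSO (log2 fold change -1.45, SE 0.0833, limma adjusted p = 1.10e-05). RBBP7, a histone-binding subunit shared with other complexes, was at 85.3 ± 5.51 TPM in 4-OHT and 146 ± 12.6 TPM in DMSO (log2 fold change -0.77). Its close relative RBBP4 was at 47.0 ± 5.76 TPM in 4-OHT and 60.2 ± 6.19 TPM in DMSO (-0.35, limma adjusted p = 0.0296), a call lost under 7 settings, among them median-of-ratios scaling (adjusted p = 0.107). LCORL, which shares a gene family with the PRC2 partner LCOR, was at 5.04 ± 0.864 TPM in 4-OHT and 7.02 ± 0.913 TPM in DMSO (-0.41, limma adjusted p = 0.0485), a call also lost under 7 settings (adjusted p up to 0.404).

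None of the PRC1 core subunits RING1, RNF2, BMI1 and PCGF2 was called. RING1 (chromosome 6, 33208495 to 33212722), a ubiquitin ligase, was at 57.2, 54.7 and 55.2 TPM in 4-OHT and at 49.8, 51.1 and 54.2 TPM in DMSO (log2 fold change 0.11, 95% interval -0.02 to 0.23, limma adjusted p = 0.140). BMI1 (chromosome 10, 22321211 to 22331484), its PCGF partner, was at 42.6, 43.4 and 40.7 TPM in 4-OHT and at 36.6, 32.0 and 39.3 TPM in DMSO (log2 fold change 0.23, 95% interval 0.04 to 0.42, limma adjusted p = 0.0527). In both genes the lowest 4-OHT library was only just above the highest DMSO library. Under median-of-ratios scaling both were called higher, RING1 with 0.23 (adjusted p = 0.0121; 0.0121 to 0.308 over the alternatives) and BMI1 with 0.35 (adjusted p = 0.0115; 0.0115 to 0.136). BMI1 was also called under quantile normalization (adjusted p = 0.0429), among genes of at least 5 TPM (adjusted p = 0.0478) and on leaving out DMSO replicate 3 (adjusted p = 0.0262). BMI1 overlaps a read-through gene, COMMD3-BMI1, at 0, 0 and 2.96 TPM in 4-OHT and 1.44, 3.25 and 0 TPM in DMSO; the 2 rows together gave a log2 fold change of 0.20 (adjusted p = 0.0269). RNF2, the other ligase, was at 17.7 ± 1.40 TPM in 4-OHT and 16.2 ± 0.563 TPM in DMSO (0.12, limma adjusted p = 0.251), and was called higher with median-of-ratios scaling (adjusted p = 0.0460) and with quantile normalization (adjusted p = 0.04999). PCGF2, the closest relative of BMI1, was at 33.8 ± 1.34 TPM in 4-OHT and 36.7 ± 3.53 TPM in DMSO (-0.11, limma adjusted p = 0.296).

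The CBX proteins are the readers of canonical PRC1. The 3 members CBX2, CBX7 and CBX8 fell, while CBX6, a relative outside the member list, rose slightly. CBX2 (chromosome 17, 79778132 to 79787983) was at 0.525, 0.235 and 0.687 TPM in 4-OHT and at 2.97, 2.49 and 1.91 TPM in DMSO, 5.10-fold lower in 4-OHT by the means (log2 fold change -1.22, SE 0.205, limma adjusted p = 0.00223). At this low level the fold change depended on the pseudocount, and with 0.1 in place of 1 it was -2.20. CBX7 (chromosome 22, 39120167 to 39152674) was at 2.98, 3.05 and 3.48 TPM in 4-OHT and at 5.62, 7.24 and 5.82 TPM in DMSO (-0.79, SE 0.131, limma adjusted p = 0.00217). CBX8 (chromosome 17, 79792132 to 79801683) was at 2.85, 2.21 and 2.71 TPM in 4-OHT and at 4.15, 4.01 and 4.35 TPM in DMSO (-0.53, SE 0.128, limma adjusted p = 0.0119). In all of these 3 genes the highest 4-OHT library was below the lowest DMSO library. The call of CBX8 was lost under quantile normalization (-0.28, adjusted p = 0.120; 0.00412 to 0.120 over the alternatives). Antisense genes lie over several members, and without a stated strand setting their reads cannot be told apart from those of the members. Their rows were low: AL031846.2 within CBX7 reached at most 0.297 TPM in 4-OHT and 0.968 TPM in DMSO, JARID2-AS1 within JARID2 at most 0.268 TPM in 4-OHT and 0 in DMSO, and AC100791.2 over CBX8 was listed at 0 in every library.

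CBX2 and CBX8 are neighbours, with 4148 bases between them, and both fell. CBX6 (chromosome 22), more abundant than these 3 in both groups, was at 51.9 ± 0.954 TPM in 4-OHT and 45.4 ± 1.74 TPM in DMSO (0.19, limma adjusted p = 0.0206), a call lost without 4-OHT replicate 2 or 3 or DMSO replicate 1 (adjusted p = 0.0603 to 0.0613).

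The summed level of CBX2, CBX7 and CBX8 was 6.24 ± 0.697 TPM in 4-OHT and 12.9 ± 0.839 TPM in DMSO. With CBX6 added, the sum was 58.1 ± 1.18 TPM in 4-OHT and 58.2 ± 1.78 TPM in DMSO. Of that sum CBX6 accounted for 89.3% ± 1.08 in 4-OHT and 77.9% ± 1.39 in DMSO, CBX7 for 5.44% ± 0.354 in 4-OHT and 10.7% ± 1.29 in DMSO, CBX8 for 4.46% ± 0.586 in 4-OHT and 7.16% ± 0.369 in DMSO, and CBX2 for 0.827% ± 0.383 in 4-OHT and 4.24% ± 1.02 in DMSO. These are shares of transcripts, described without a test, and not of protein in complexes.

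**Figure D2:**
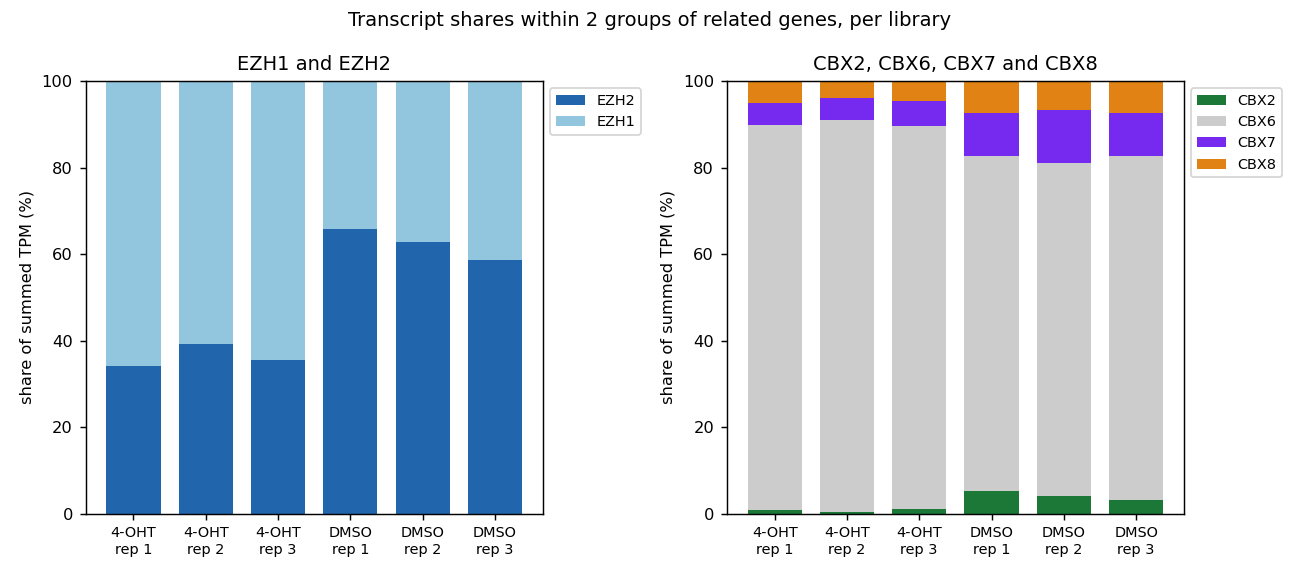
Share of summed TPM in percent (vertical axis) in each library, for EZH1 and EZH2 (left) and CBX2, CBX6, CBX7 and CBX8 (right), as stacked bars. EZH2 made up 34.1% to 39.2% in the 4-OHT libraries and 58.7% to 65.9% in the DMSO libraries, and CBX6 averaged 89.3% in 4-OHT and 77.9% in DMSO.

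Ordered by level in 4-OHT, the members ran from RING1 (55.7 TPM) and BMI1 (42.2) through SUZ12 (23.3), EED (23.2), JARID2 (14.2), EZH1 (11.98), EZH2 (6.81), CBX7 (3.17) and CBX8 (2.59) to CBX2 (0.482). Of these neighbours only SUZ12 and EED had overlapping libraries. In DMSO, EZH2 (32.3 TPM) was the third and overlapped BMI1 (36.0), EED (27.2) overlapped SUZ12 (27.3), and JARID2 (8.28) overlapped CBX7 (6.23). RING1 was the highest and CBX2 the lowest in both groups.

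Of 9 other canonical PRC1 subunits, CBX6 included, 8 were tested, of which 2 rose (CBX6 and PHC2) and 3 fell (SCMH1, SCML1 and PHC1, the last named after its values were seen), with a median of 0.00673. Of the 8 tested 62.5% were called, against 49.6% of all genes tested. PHC2, which links PRC1 complexes into larger assemblies, was at 237 ± 14.5 TPM in 4-OHT and 119.4 ± 3.76 TPM in DMSO (log2 fold change 0.98, SE 0.0552, limma adjusted p = 9.92e-06). SCMH1, a PRC1-associated protein, was at 10.03 ± 0.592 TPM in 4-OHT and 16.6 ± 2.02 TPM in DMSO (-0.67). SCML1, related to SCMH1, was at 13.6 ± 1.84 TPM in 4-OHT and 20.2 ± 1.44 TPM in DMSO (-0.54, limma adjusted p = 0.00601).

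Of 18 subunits of variant PRC1, which contain RYBP or YAF2 in place of a CBX protein, all were tested, and 5 rose and 4 fell (median 0.00388). That is 50% called, against 49.6% of all genes tested. Those that rose were RYBP, YAF2, E2F6, FBRS and BCOR, and BCORL1 fell beside the 3 genes described next; these 6 were named after their values were seen. PCGF5 was at 8.27 ± 0.894 TPM in 4-OHT and 19.5 ± 1.62 TPM in DMSO (log2 fold change -1.15, limma adjusted p = 0.000104). KDM2B, which binds unmethylated CpG islands, was at 9.05 ± 0.624 TPM in 4-OHT and 17.99 ± 1.77 TPM in DMSO (-0.92). AUTS2, a partner of PCGF3 and PCGF5, was at 0.755 ± 0.271 TPM in 4-OHT and 2.06 ± 0.411 TPM in DMSO (-0.80), and passed the filter through its DMSO level alone.

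Of 12 enzymes and partners that remove Polycomb marks, 11 were tested, of which 1 rose and 2 fell (median -0.05). That is 27.3% called, against 49.6% of all genes tested. The one that rose was KDM6B, a demethylase that opposes PRC2, at 12.2 ± 0.735 TPM in 4-OHT and 7.31 ± 0.954 TPM in DMSO (log2 fold change 0.67, SE 0.110, limma adjusted p = 0.00197). Its relative KDM6A was at 9.42 ± 0.693 TPM in 4-OHT and 9.83 ± 1.01 TPM in DMSO (-0.05, limma adjusted p = 0.696). BAP1, which removes ubiquitin from histone H2A, was at 49.8 ± 6.95 TPM in 4-OHT and 51.2 ± 4.54 TPM in DMSO (-0.05, limma adjusted p = 0.766). FOXK1, a DNA-binding partner of BAP1, was at 3.29 ± 0.0524 TPM in 4-OHT and 7.96 ± 0.204 TPM in DMSO (-1.06), and MBD6, another partner, at 21.0 ± 1.35 TPM in 4-OHT and 24.9 ± 0.661 TPM in DMSO (-0.24, limma adjusted p = 0.0260), a call lost under 7 settings (adjusted p up to 0.169). Of YY1, SFMBT1 and SFMBT2, related to the fly complex PhoRC, 2 were tested, and SFMBT2 lay below the filter. SFMBT1 fell, at 1.65 ± 0.456 TPM in 4-OHT and 4.91 ± 0.987 TPM in DMSO (-1.16, limma adjusted p = 0.00220). YY1 was not called (-0.02, limma adjusted p = 0.760). That is 50% called, against 49.6% of all genes tested.

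Over these 5 lists together, 48 of 52 genes were tested, 8 rose and 15 fell. That is 47.9% called, against 49.6% of all genes tested, and their median log2 fold change was -0.05, against -0.09 over all genes tested. The share called was thus near that of the whole table. With median-of-ratios scaling 11 of them rose and 9 fell, and with quantile normalization 13 rose and 11 fell. Over all genes the first scaling gave 4039 higher and 3579 lower of 15225, and the second 3649 higher and 3612 lower of 15276.

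**Figure D3:**
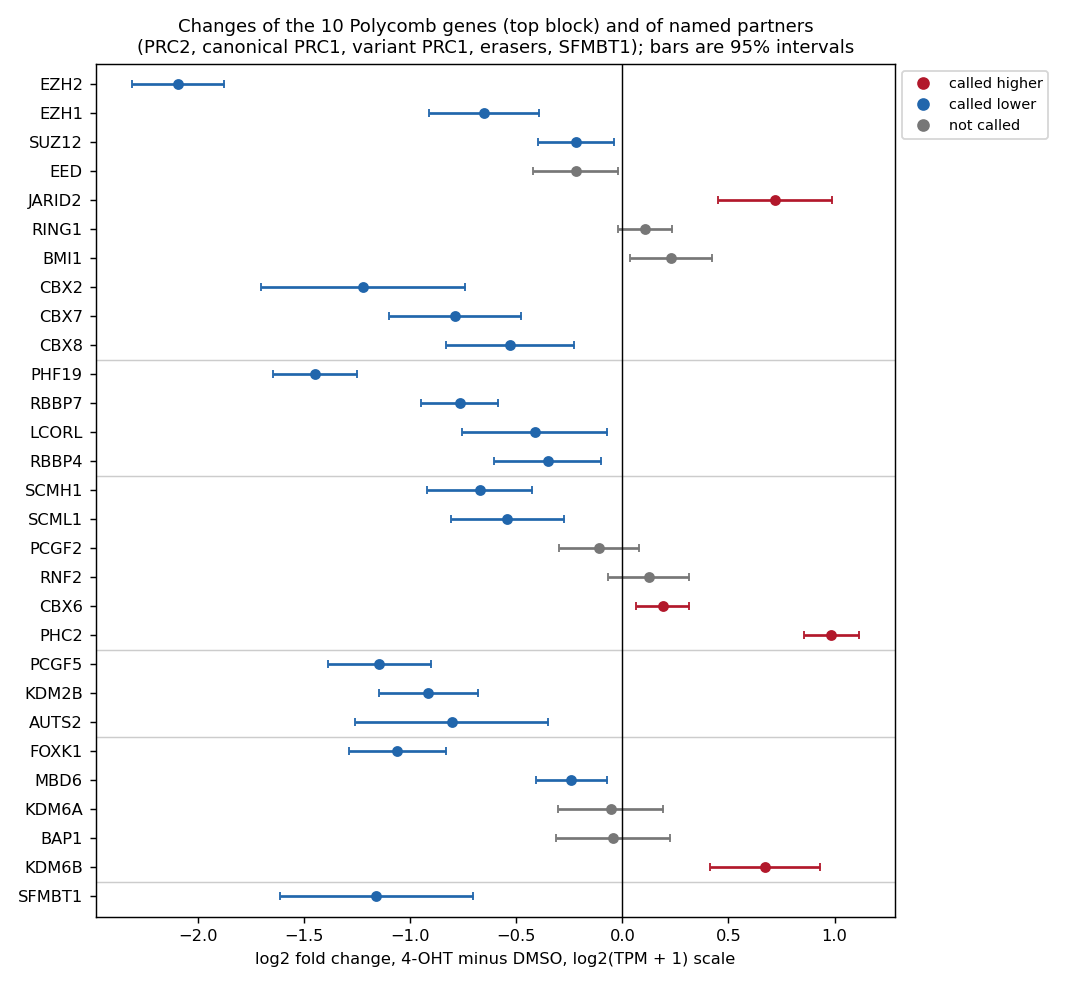
Log2 fold change (horizontal axis, 4-OHT minus DMSO, log2(TPM + 1) scale) with 95% intervals for the 10 Polycomb genes (top block) and the named genes of the lists of PRC2, canonical PRC1, variant PRC1, mark removal and PhoRC, blocks separated by lines. Blue points were called lower, red points higher and grey points not called; of the genes plotted, EZH2 (-2.10) lies farthest to the left and PHC2 (0.98) farthest to the right.

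The next list held CDKN2A, CDKN2B and CDKN1C, cell cycle inhibitors that Polycomb complexes are known to silence, and the antisense RNA CDKN2B-AS1. Of these 4 genes, 2 rose (CDKN2B and CDKN2A, of the INK4 locus), 1 fell (CDKN1C) and 1 was not called (CDKN2B-AS1). Over all genes tested 19.8% were called higher and 29.9% lower. CDKN2B, encoding p15, was at 158 ± 3.97 TPM in 4-OHT and 6.47 ± 0.129 TPM in DMSO, and CDKN2A, encoding p16 and ARF, at 41.5 ± 4.68 TPM in 4-OHT and 20.4 ± 2.09 TPM in DMSO (limma adjusted p = 0.000247). The log2 fold change was 4.41 for CDKN2B (limma adjusted p = 2.80e-08) and 0.99 for CDKN2A. CDKN2B-AS1, the antisense RNA of the same locus, was at 0.424, 0.740 and 1.46 TPM in 4-OHT and at 1.35, 2.43 and 2.06 TPM in DMSO, with overlapping groups (-0.67, limma adjusted p = 0.0673). CDKN2B lies within it on the opposite strand. Without a stated strand setting, reads from where these genes overlap cannot be told apart. CDKN1C, encoding p57, was at 0.469, 0.371 and 0.704 TPM in 4-OHT and at 4.18, 1.05 and 2.86 TPM in DMSO (-1.19, limma adjusted p = 0.0228), and passed the filter through its DMSO level alone. The call of CDKN1C was lost without the filter (adjusted p = 0.107) and without 4-OHT replicate 1 or 2 or DMSO replicate 1 or 3 (adjusted p = 0.0585 to 0.0718), and CDKN2B-AS1 was called lower without 4-OHT replicate 3 (adjusted p = 0.0276). The values of CDKN2B-AS1 and CDKN1C were seen before these genes were named.

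HOX genes are developmental regulators known as Polycomb targets. Of 39 listed HOX genes 20 were tested, and 12 fell and none rose, beside 29.9% lower and 19.8% higher over all genes tested. Their median log2 fold change was -0.66, against -0.09 over all genes tested. Of these 12, 9 had a mean of at least 1 TPM in 4-OHT, and the others (HOXA4, HOXA6 and HOXB13) passed the filter through their DMSO level alone. The 19 HOX genes not tested had means of at most 0.804 TPM over the libraries. By group means 14 of the 19 were lower and 5 higher in 4-OHT, so the calls cover only HOX genes above the filter. Without the filter 10 of 39 fell and none rose, beside 4108 lower and 2726 higher among 36814 genes. Among the 9 HOX genes of at least 5 TPM 6 fell and none rose, beside 3515 lower and 2707 higher among 11055 genes. Under quantile normalization 7 of 19 fell and 1 rose, HOXD8 (0.50, adjusted p = 0.0161), named after its values were seen. Over all genes that setting gave 3612 lower and 3649 higher of 15276. HOXC6 was at 1.67 ± 0.393 TPM in 4-OHT and 4.62 ± 0.835 TPM in DMSO (log2 fold change -1.08, limma adjusted p = 0.00198), HOXD9 at 1.68 ± 0.246 TPM in 4-OHT and 4.24 ± 0.670 TPM in DMSO (-0.96, limma adjusted p = 0.00197), and HOXA13, which marks distal structures, at 12.03 ± 0.517 TPM in 4-OHT and 23.6 ± 0.487 TPM in DMSO (-0.92, limma adjusted p = 4.26e-05). By cluster, 5 of 9 tested genes fell in HOXA, 1 of 2 in HOXB, 3 of 4 in HOXC and 3 of 5 in HOXD.

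**Figure D4:**
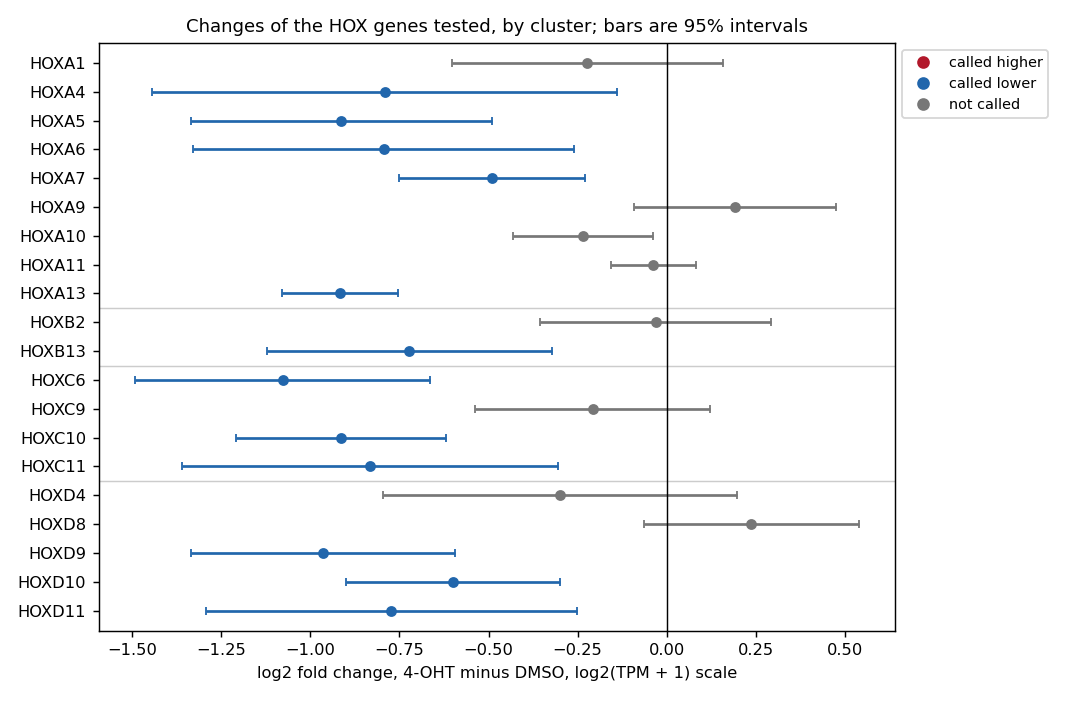
Log2 fold change (horizontal axis, 4-OHT minus DMSO, log2(TPM + 1) scale) with 95% intervals for the 20 HOX genes tested, ordered by cluster and number, with lines between clusters. The 12 blue points were called lower and range from -1.08 (HOXC6) to -0.49, and the grey points were not called.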

How the data were processed

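Bulk RNA-seq of 3 4-OHT and 3 DMSO libraries was used, made from 1 µg of total RNA with the KAPA RNA HyperPrep kit, per the labels' protocols. The deposited values are TPM computed by the authors; each library sums to between 998367 and 998843. The submitters' processing notes name Trim Galore 0.6.6, STAR, StringTie and GRCh38. Neither annotation, strand setting nor scaling between libraries is given in the sources used here. Read depth is unknown, so no detection limit was computed. In DMSO replicate 3, 1 deposited TPM value below 0 was set to 0.

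Genes averaging 1 TPM or more were tested on log2(TPM + 1) in R 4.3.3 by limma 3.58.1 (linear model without covariates, moderated variances with a trend, 2-sided), with Benjamini-Hochberg adjustment over the 15272 genes tested and a threshold of 0.05. The fit was tested on simulated data in which a small part of the genes, all at 5 TPM or more in DMSO, was changed. That simulation does not speak to lower levels, to scaling between libraries or to the kind of replicate. Lists are described by counts and medians; 1 listed gene is not reported here. The members and lists were chosen with earlier results of these data known. Named genes were the members and 10 others fixed by symbol: RNF2, PCGF2, CBX6, RBBP4, RBBP7, KDM6A, KDM6B, BAP1, CDKN2A and CDKN2B. In each list of machinery, HOX and proliferation genes, the 3 with the largest change among those called were added. So were the 5 genes most like the member that fell most, and the 5 most like the member that rose most. Any other gene was named after its values were seen. Alternatives changed the pseudocount (0.1 or 0.5), filter (none or 5 TPM), scaling, variance trend, replicate block and set of libraries. Positions come from GENCODE 29. Python 3.11.15, pandas 2.3.3, numpy 2.4.6 and matplotlib 3.10.9 were used.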

Additional observations from a re-analysis of the deposited data

How the results depend on the processing

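EZH2, EZH1, JARID2, CBX2 and CBX7 kept their direction and their call under every alternative in which they were tested; CBX2, CBX7 and CBX8 were not tested among genes of at least 5 TPM. EZH2 ranged from -2.23 to -1.94 and JARID2 from 0.61 to 0.90 in log2 fold change. Under median-of-ratios scaling 3 members were called higher, under quantile normalization 2 and among genes of at least 5 TPM 2, against 1 as reported. Among genes of at least 5 TPM 3 members were called lower, because only 7 were tested. Leaving out 1 library gave 1 to 2 members higher. Machinery genes numbered 13 higher under quantile normalization and 9 lower under median-of-ratios scaling. HOX genes called lower numbered 6 among genes of at least 5 TPM and 7 under quantile normalization, where 1 was called higher. Without 1 library, 8 to 11 HOX genes were lower and none higher. The cause of the differences between scalings was not tested. The log2 fold change of PCGF2 changed sign under median-of-ratios scaling (0.0078), those of KDM6A (0.055 and 0.14) and BAP1 (0.073) under median-of-ratios scaling and, for KDM6A, quantile normalization. Leaving out 1 library gave -0.12 to 0.012 for KDM6A and -0.12 to 0.072 for BAP1. None of these was called. The EZH2 share differed by -25.7 percentage points under quantile normalization and by -28.1 to -24.5 without 1 library.

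Same-numbered libraries did not deviate together (correlations of 0.0475, 0.00549 and 0.00664 across genes), so the replicate numbers were not taken to pair them. With the replicate number as a block 2819 genes were higher and 4246 lower, 1 member was higher and 5 were lower, the call of SUZ12 being lost (adjusted p = 0.0680). Without read counts, precision at levels near 1 TPM, as for CBX2, cannot be stated beyond the spread of 3 libraries.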

Other observations

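The 2 ligase transcripts of PRC1 kept their proportion, with RING1 at 75.9% ± 1.51 of the sum of RING1 and RNF2 in 4-OHT and 76.2% ± 0.160 in DMSO. Of the 6 PCGF transcripts BMI1 made up 26.97% ± 2.39 in 4-OHT and 22.1% ± 1.92 in DMSO, and PCGF5 4.32% to 5.98% in 4-OHT and 11.5% to 12.8% in DMSO. SCML2, a PRC1-associated gene below the filter, picked after looking at its values, was at 0.207 ± 0.119 TPM in 4-OHT and 1.52 ± 0.451 TPM in DMSO. Among HOX genes not called, HOXA11 stood at 50.9 to 53.7 TPM in 4-OHT and 52.3 to 55.0 TPM in DMSO, beside HOXA13, which fell; both were set side by side after their values were seen.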
